A study of Homo sapiens with 6 samples.

Results

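The mRNA of 35 genes of the Hippo pathway was examined in SiHa cells after knockdown of CNN3. They were chosen by symbol for their known roles, with earlier results of these data known. All 35 were found among the 48162 genes that were counted. Of these, 19 encode components of the pathway and 16 are target genes of its effector YAP. SiHa is an established cell line from a human cervical carcinoma that carries HPV16. The cells of both groups were transiently transfected, 3 samples with the small interfering RNA (siRNA) si-CNN3#1, which targets CNN3 (group si-CNN3), and 3 samples with the control siRNA si-NC (group si-NC), and RNA was harvested at 48 h. CNN3 encodes calponin 3, an actin-binding protein. Each group came from 3 independent assays, and only a single siRNA against CNN3 in a single cell line was sequenced, with no untransfected cells, so an effect of the loss of CNN3 and another effect of si-CNN3#1 cannot be told apart.

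In the Hippo pathway, the kinases STK3 and STK4 with SAV1 activate LATS1 and LATS2 with MOB1A, and the LATS kinases phosphorylate the coactivators YAP (YAP1) and TAZ (WWTR1), which keeps them in the cytoplasm. Unphosphorylated YAP and TAZ enter the nucleus, bind TEAD transcription factors and switch on genes such as CTGF, CYR61 and ANKRD1. The state of the actin cytoskeleton is a well known input, and in carcinoma cells YAP is known for promoting growth. Phosphorylation and location of the proteins are not seen in mRNA counts.

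The sense strands of both siRNAs are shown because part of them recurs in members described later. The capitals mark the letters that an mRNA shares with the sense strand where it pairs with bases 2 to 8, the seed, of the guide strand.
si-CNN3#1: gcagaugggaaCCAACAAatt
si-NC: uucuccgaacgUGUCACGutt

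The counts on genes added up to between 18147028 and 19026341 per si-CNN3 sample and between 20287139 and 24976517 per si-NC sample. CNN3, the targeted gene, was first checked. It had 26.0, 26.8 and 31.4 normalized CPM (counts scaled by the size of the library) in si-CNN3 replicates 1, 2 and 3, against 56.5, 51.7 and 57.2 CPM in si-NC. The knockdown therefore left 50.9% of the control level (log2 fold change −0.97, SE 0.06, adjusted p = 2.041e-20). Of 8 epithelial markers, all had counts in each group, with a summed level of 1416 to 1478 CPM in si-CNN3 and 1455 to 1523 CPM in si-NC. One of them, KRT5, stayed below 0.50 CPM in every sample. Fibroblast markers summed to 11.8 to 13.0 CPM against 11.3 to 12.5 CPM. The 3 leukocyte markers summed to 120 to 128 CPM against 143.9 to 155.9 CPM, nearly all of it from CD14, while PTPRC, the defining marker, had a mean of 0.55 CPM against 0.63 CPM. The endothelial marker CDH5 had at most 0.47 CPM.

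More YAP target genes rose than fell after CNN3 knockdown, whereas neither YAP1 nor any gene of the kinase cascade passed the test, with log2 fold changes between −0.09 and 0.09. Of the 14 target genes with enough counts for the test, 8 rose and 1 fell. Of the 19 components, AMOTL2, AJUBA and TEAD1 rose and VGLL4 fell. Across all 15860 tested genes 13.3% passed the threshold (adjusted p of 0.05 or less), 6.17% higher and 7.14% lower, while 39.4% of the 33 tested members passed. As the members were chosen with earlier results of these data known, their share is not independent of those results. Whether a gene passes also depends on its counts. Neither the members nor the further lists below were matched by level with the other genes. Scaled by total counts alone in place of TMM, 1294 of all tested genes were higher and 863 lower, in place of 978 and 1133. The median log2 fold change was 0.26 over the target genes, 0.05 over the components and 0.002 over all tested genes. Without si-CNN3 replicate 2 the median of the target genes was 0.17, and without si-NC replicate 1 that of the components was 0.02. The 3 values of each group did not overlap for 28.2% of all tested genes. Among the tested members si-CNN3 lay wholly above si-NC for 13, wholly below for 4, and overlapped it for 16. In bulk RNA, a change in the share of cells that express a gene and a change in the level per cell cannot be told apart.

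**Figure D1:**
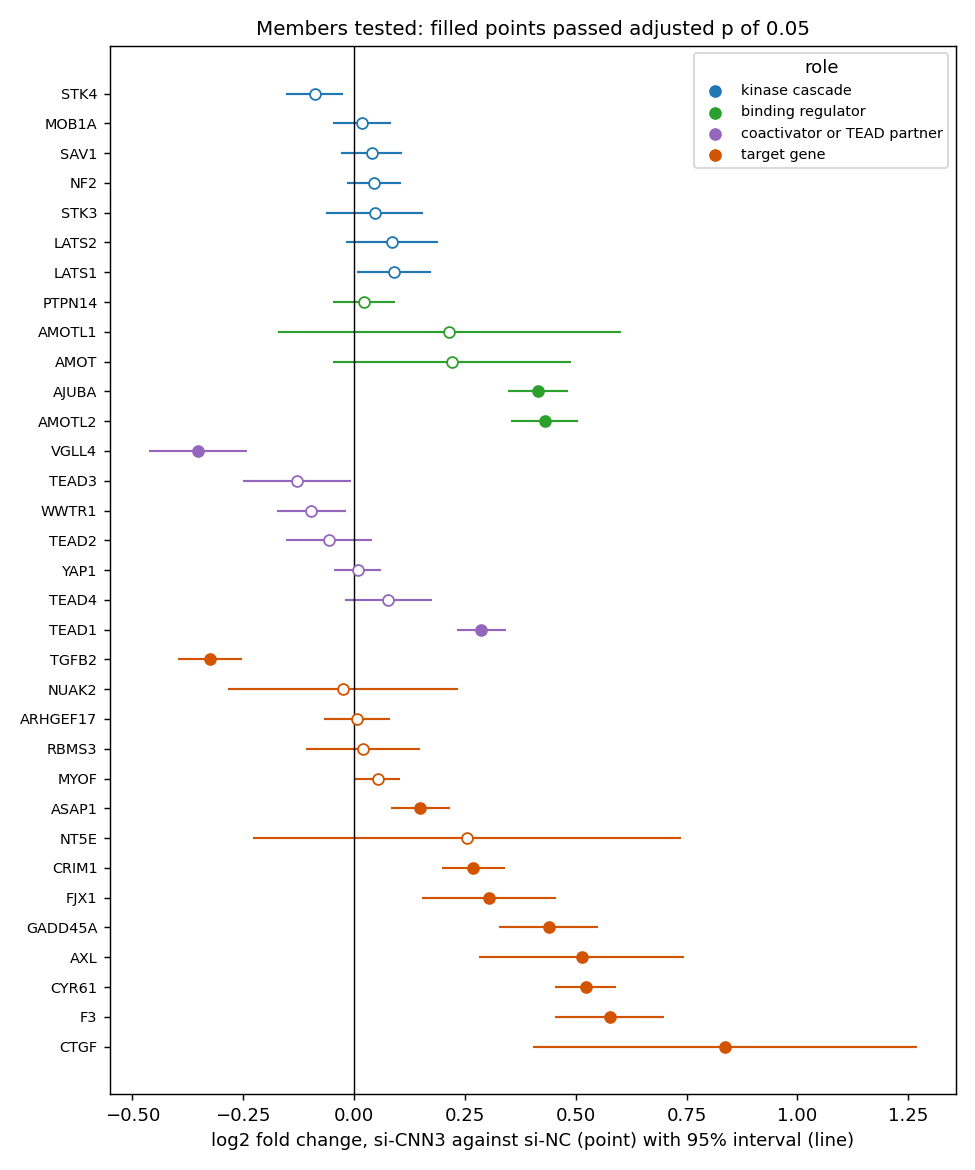
Log2 fold change of the 33 tested members, si-CNN3 against si-NC (x axis), with lines for the 95% interval, 1 gene per row (y axis) and colours for its role; filled points passed the adjusted p threshold. All 7 genes of the kinase cascade lie between −0.09 and 0.09, while 8 of 14 target genes are filled to the right of 0 and TGFB2 to the left.

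The spread of these medians between samples is given next. For every gene the log2 level of a sample was set against the si-NC mean, and the median was taken over each list. Over the 14 target genes this median was 0.24, 0.29 and 0.16 in si-CNN3 replicates 1, 2 and 3, and 0.01, −0.01 and 0.02 in si-NC. Over the 19 components it was 0.01, 0.06 and 0.04 in si-CNN3, and 0.009, 0.003 and 0.005 in si-NC. The si-NC values lie near 0 because their own mean is the reference, and the si-CNN3 values restate the fold changes by sample. They describe the middle of each list, were given no test, and do not speak for each gene, since 5 of the 14 target genes did not pass and TGFB2 fell.

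**Figure D2:**
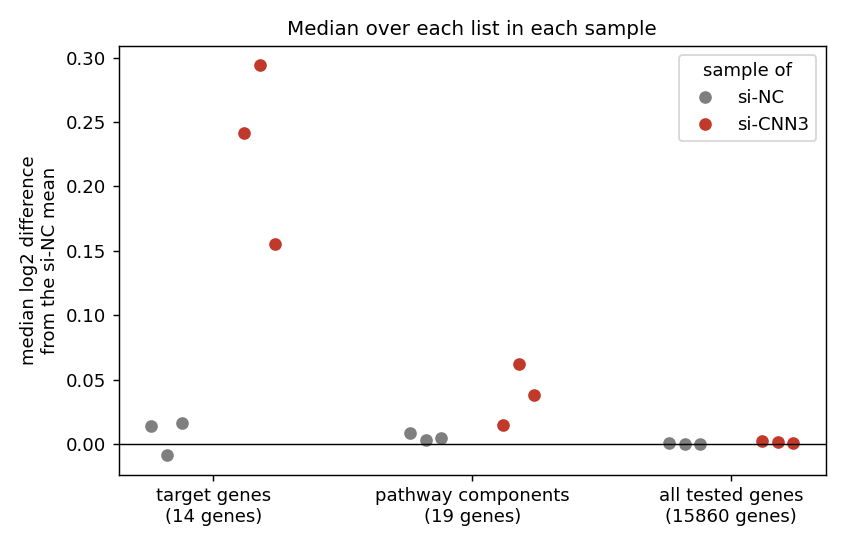
Median difference of log2 level from the si-NC mean (y axis) over the target genes, the pathway components and all tested genes (x axis), with 1 point per sample. Target genes reach 0.16 to 0.29 in si-CNN3 samples, and all tested genes remain near 0 in every sample.

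Levels per gene length were compared as FPKM (fragments scaled by gene length and by the total of the sample) in the control cells. YAP1 had the highest level of the 35 genes, at 101.6 FPKM (mean of 3 si-NC samples), followed by the membrane repair protein MYOF at 98.8 FPKM and the LATS cofactor MOB1A at 92.1 FPKM. The order between genes depends on the lengths used, and by CPM MYOF (329.5) lay above YAP1 (280.7) in si-NC. WWTR1, which encodes TAZ, had 52.6 FPKM. The target genes spanned the whole range, as CRIM1 had 88.6 FPKM and CYR61 72.0 FPKM, whereas CTGF had 0.55 FPKM. DLC1 (0.02 FPKM) and ANKRD1 (0.008 FPKM) were the lowest of all members, so 3 genes often used as reporters of YAP, CYR61, CTGF and ANKRD1, lay at very different levels in these cells.

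**Figure D3:**
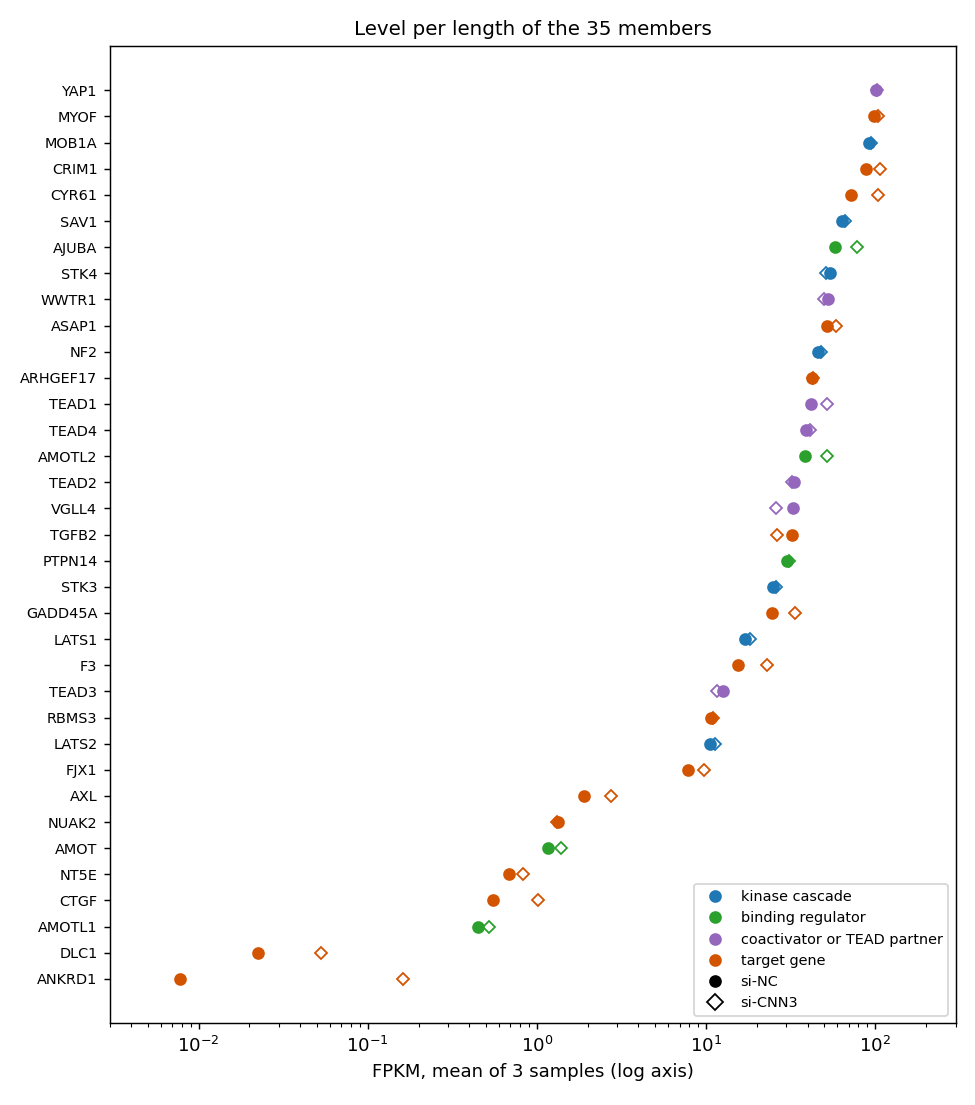
Mean FPKM of each of the 35 members (y axis) on a log axis (x axis), with filled circles for si-NC, open diamonds for si-CNN3 and colours for the role. YAP1 is highest at 101.6 FPKM in si-NC and ANKRD1 lowest at 0.008 FPKM.

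Among the target genes, CYR61, CTGF and ANKRD1 were taken first because they are the usual readouts of YAP. CYR61 and CTGF encode secreted matricellular proteins of the CCN family. CYR61 (ENSG00000142871, chromosome 1, 85580761 to 85583962, GRCh38, GENCODE 29) had 150.9, 140.6 and 152.3 CPM in si-CNN3 and 108.4, 98.0 and 103.1 CPM in si-NC, so all si-CNN3 samples lay above all si-NC samples. Its log2 fold change was 0.52 (SE 0.03, adjusted p = 9.417e-18). CTGF was rare, with 42, 37 and 54 counts in si-CNN3 and 20, 37 and 31 in si-NC, or 2.23, 1.93 and 2.96 CPM against 1.00, 1.49 and 1.44 CPM. It rose by 0.84 on the log2 scale (SE 0.22, adjusted p = 0.005839), the largest change of any tested member, but without si-CNN3 replicate 3 it had 0.65 and an adjusted p of 0.09618, and DESeq2 gave no adjusted p for it.

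ANKRD1, a muscle ankyrin repeat protein that shuttles to the nucleus, had 10, 2 and 6 counts in si-CNN3 and 0, 0 and 1 in si-NC. This was below the minimum for the test. The 18 counts against 1 gave a rate ratio of 21.3 with a 95% interval of 3.36 to 885.9, which covers counting error only and not the spread between samples. Tested without a minimum, ANKRD1 had an adjusted p of 0.003786 by edgeR. DESeq2 gave an unadjusted p of 0.004009 and no adjusted p. DLC1 had 2, 3 and 1 counts in si-CNN3 and 1 in each si-NC sample, and a difference was not detectable at this depth.

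**Figure D4:**
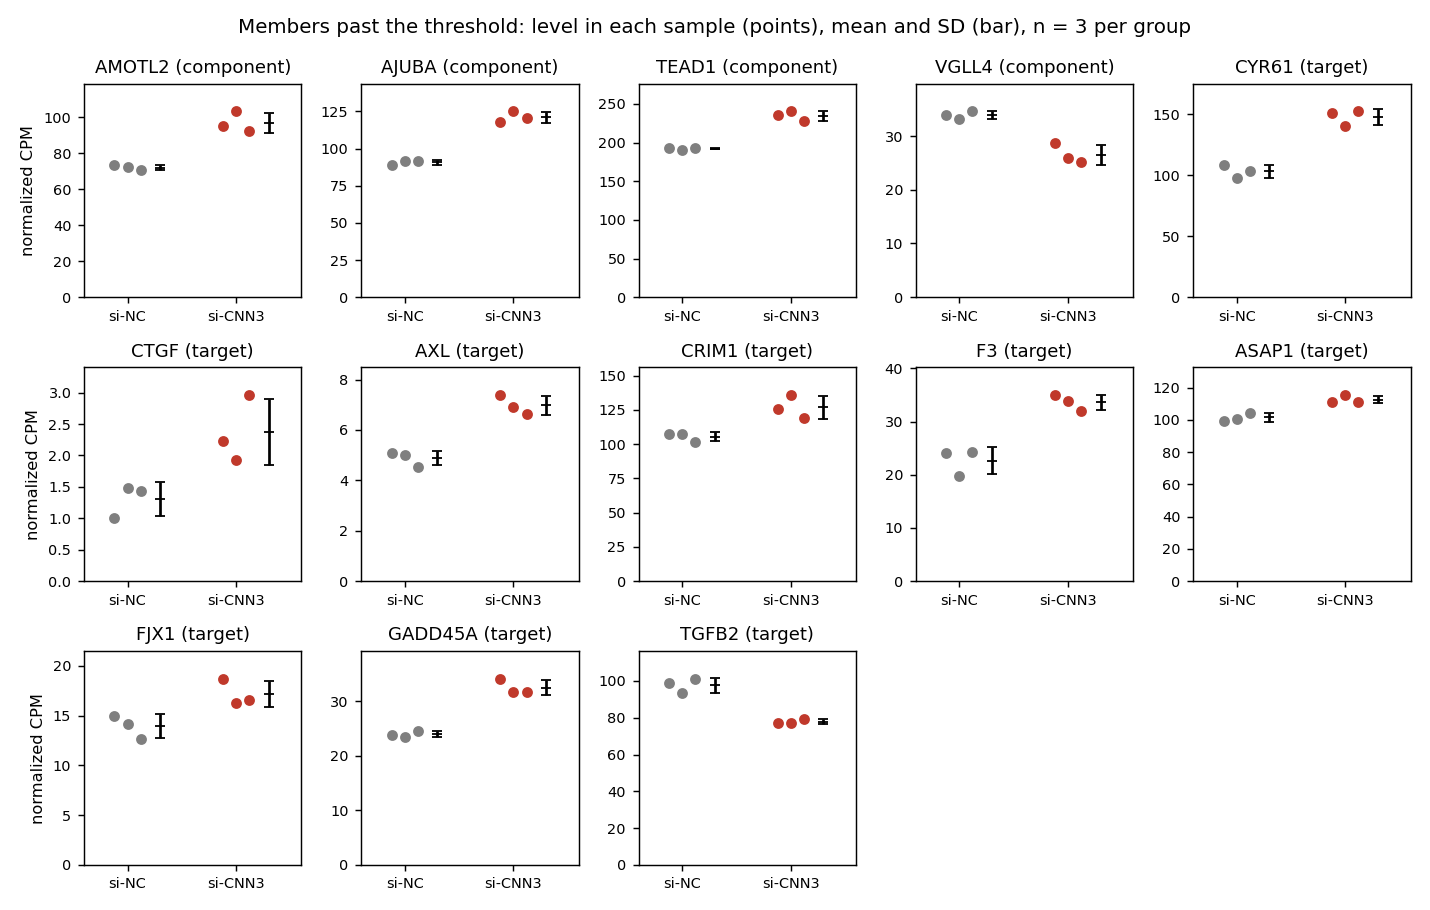
Normalized CPM (y axes, each from 0) of the 13 members that passed the threshold, in each si-NC and si-CNN3 sample (points; x axis), with the mean and SD at the side of the points (n = 3). In all 13 the groups are apart, and si-CNN3 is lower only for VGLL4 and TGFB2.

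A pair of promoter motifs was searched in the members, CATTCC, the core site of TEAD factors, and TGANTCA, the site of AP-1, which often binds beside TEAD. RefSeq promoter windows (GRCh38.p14, 250 bases before to 50 after a start site) existed for 26 of the 35 members, 38 windows in all. Counted on either strand, CATTCC was in 14% of the 35116 windows of all genes and TGANTCA in 7.71%. CATTCC was in 5 of the 11 windows of target genes (45.5%) and in 5 of the 27 windows of components (18.5%). Those 11 windows cover 10 of the 16 target genes. CYR61, CRIM1, GADD45A and ASAP1, which rose, had no window. The window of CTGF held the most copies of CATTCC, ANKRD1 held both motifs, F3 held AP-1 sites and no CATTCC, and TGFB2, which fell, held CATTCC as well. The 250 bases before the RefSeq start site are given 5′ to 3′ on the strand of the gene. Both motifs are in capitals (GGAATG is CATTCC on the other strand). None of the motifs overlapped another.
CTGF (chr6:131951373-131951622, minus strand): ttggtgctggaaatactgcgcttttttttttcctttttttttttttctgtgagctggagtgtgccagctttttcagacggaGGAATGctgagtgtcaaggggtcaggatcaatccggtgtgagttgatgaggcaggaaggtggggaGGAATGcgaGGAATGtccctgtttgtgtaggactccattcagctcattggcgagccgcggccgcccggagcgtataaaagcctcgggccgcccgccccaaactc
ANKRD1 (chr10:90921088-90921337, minus strand): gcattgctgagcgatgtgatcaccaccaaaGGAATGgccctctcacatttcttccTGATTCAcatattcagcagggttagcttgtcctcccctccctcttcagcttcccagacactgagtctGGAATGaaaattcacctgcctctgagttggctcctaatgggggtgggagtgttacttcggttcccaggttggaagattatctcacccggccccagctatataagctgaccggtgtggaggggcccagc
F3 (chr1:94541760-94542009, minus strand): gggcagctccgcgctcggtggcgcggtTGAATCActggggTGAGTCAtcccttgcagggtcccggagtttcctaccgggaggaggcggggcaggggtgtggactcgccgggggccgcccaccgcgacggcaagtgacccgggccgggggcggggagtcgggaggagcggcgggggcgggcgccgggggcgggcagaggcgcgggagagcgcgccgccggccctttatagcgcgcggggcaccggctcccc
TGFB2 (chr1:218345086-218345335, plus strand): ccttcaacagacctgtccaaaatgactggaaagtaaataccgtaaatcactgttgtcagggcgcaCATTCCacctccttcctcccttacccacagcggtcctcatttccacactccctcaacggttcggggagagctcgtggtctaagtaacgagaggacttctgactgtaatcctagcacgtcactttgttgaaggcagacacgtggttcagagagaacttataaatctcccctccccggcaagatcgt

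CTGF had 3 copies of the TEAD motif, which began at −169, −104 and −95 from the start site. ANKRD1 had 2, at −220 and −128, with an AP-1 motif at −195 between them. F3 had AP-1 motifs at −223 and −210. TGFB2 had a TEAD motif at −185. Thus a CATTCC match was present in windows of genes that rose and in this window of a gene that fell. NUAK2, with 2 copies in its window, had a log2 fold change of −0.02 (adjusted p = 0.9359). These matches describe letters in a window and say nothing of binding.

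The other target genes that rose code for membrane, signalling and stress proteins. F3 (tissue factor, which starts blood coagulation) had 34.95, 33.9 and 32.0 CPM in si-CNN3 and 24.0, 19.7 and 24.3 CPM in si-NC, a log2 fold change of 0.58 (SE 0.06, adjusted p = 2.415e-10). AXL, a receptor tyrosine kinase, had 7.37, 6.93 and 6.63 CPM against 5.08, 5.02 and 4.54 CPM, a log2 fold change of 0.51 (SE 0.12, adjusted p = 0.001236). For both genes every si-CNN3 sample exceeded every si-NC sample. GADD45A, a stress-induced growth arrest protein, had 34.0, 31.7 and 31.6 CPM against 23.8, 23.5 and 24.5 CPM, a log2 fold change of 0.44 (SE 0.06, adjusted p = 3.262e-08). FJX1, which encodes a homologue of the Drosophila protein four-jointed, had 18.7, 16.3 and 16.5 CPM against 15, 14.1 and 12.6 CPM, a log2 fold change of 0.30 (SE 0.08, adjusted p = 0.003774). This call was lost with DESeq2 (adjusted p = 0.06519), without si-CNN3 replicate 1 (0.06141) and without si-NC replicate 3 (0.0552).

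CRIM1, a transmembrane protein that binds bone morphogenetic proteins, had 125.8, 135.6 and 119.1 CPM in si-CNN3 and 107.1, 107.4 and 101.4 CPM in si-NC, a log2 fold change of 0.27 (SE 0.04, adjusted p = 8.022e-08). FEZ2 overlaps CRIM1 on the other strand and also rose, from 30.6 to 34.3 CPM (log2 fold change 0.16, adjusted p = 0.03244). It had 28% as many counts as CRIM1. Whether reads were counted by strand is not given in the sources used here, and the part of FEZ2 in the value of CRIM1 was not tested. ASAP1, an Arf GTPase-activating protein of focal adhesions, had 111.1, 115.2 and 111.3 CPM against 99.3, 100.7 and 104.4 CPM. It had the smallest rise that passed, 0.15 on the log2 scale (SE 0.03, adjusted p = 0.001042).

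TGFB2, the ligand transforming growth factor beta 2, was the only target gene that fell among the 14 tested. It had 77.3, 77.2 and 79.3 CPM in si-CNN3 and 98.9, 93.2 and 101.0 CPM in si-NC, and so lay below the control range in every sample. The log2 fold change was −0.32 (SE 0.04, adjusted p = 8.124e-10), and the 95% interval ran from −0.40 to −0.25.

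The remaining 5 tested target genes did not pass. MYOF came nearest, with 339.8, 344.2 and 341.9 CPM against 326.4, 327.9 and 334.2 CPM, which did not overlap but differed by a log2 fold change of only 0.05 (SE 0.03, adjusted p = 0.1804). ARHGEF17, a guanine nucleotide exchange factor, had 0.01 (95% interval −0.07 to 0.08), and the RNA-binding protein RBMS3 had 0.02 (−0.11 to 0.15). NUAK2, an AMPK-related kinase that feeds back on LATS, had an interval of −0.28 to 0.24. The ecto-5′-nucleotidase NT5E had 0.25 with an interval of −0.23 to 0.74, which at its level of 1.07 to 1.88 CPM covered both 0 and the value of CYR61.

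In the kinase cascade none of the 7 genes passed. LATS1 and LATS2, the kinases that act on YAP, had log2 fold changes of 0.09 (95% interval 0.006 to 0.17, adjusted p = 0.1739) and 0.09 (−0.02 to 0.19, adjusted p = 0.3331). STK4 (MST1) had 123.1, 126.0 and 120.0 CPM in si-CNN3 and 126.0, 133.9 and 132.3 CPM in si-NC, a log2 fold change of −0.09 (SE 0.03, adjusted p = 0.06083). It was the only one of the 7 whose groups did not overlap, and that narrowly. With si-CNN3 replicate 2 left out its adjusted p was 0.04741, and with si-NC replicate 1 left out 0.03409, so it then passed. Its close relative STK3 (MST2) had 0.05 (−0.06 to 0.16). The scaffold SAV1 had 0.04 (−0.03 to 0.11), MOB1A had 0.02 (−0.05 to 0.08), and NF2, the tumour suppressor merlin upstream of the cascade, had 0.05 (−0.02 to 0.11).

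The 5 binding regulators hold YAP or LATS in complexes at junctions and the cytoskeleton. AMOTL2, an angiomotin that binds YAP, had 95.3, 103.2 and 92.5 CPM in si-CNN3 and 73.5, 72.2 and 70.4 CPM in si-NC, a log2 fold change of 0.43 (SE 0.04, adjusted p = 4.668e-13). AJUBA, a LIM protein that inhibits LATS, had 118.0, 125.0 and 120.4 CPM against 89.0, 91.8 and 91.7 CPM, a log2 fold change of 0.42 (SE 0.03, adjusted p = 2.491e-14). Neither gene overlapped between the groups. In the study's own RT-PCR check of selected genes after si-CNN3#1, AJUBA is named as an exception to the changes seen by sequencing. AMOT and AMOTL1, the other two angiomotins, had few counts and point estimates of 0.22 each, with intervals of −0.05 to 0.49 and −0.17 to 0.60 (adjusted p = 0.3313 and 0.5531). PTPN14, a phosphatase that binds YAP, had 0.02 (−0.05 to 0.09, adjusted p = 0.773). AMOTL2, AJUBA, PTPN14 and LATS2 are themselves known as target genes of YAP and TEAD. With these 4 counted as target genes, 11 of 18 target genes (61.1%) and 2 of 15 components (13.3%) passed, against 13.3% of all tested genes.

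Neither coactivator passed the test. YAP1 had 284.5, 285.2 and 277.1 CPM in si-CNN3 and 282.9, 285.6 and 273.6 CPM in si-NC, with full overlap. Its log2 fold change was 0.01 (SE 0.03, adjusted p = 0.8988) and the 95% interval ran from −0.05 to 0.06. WWTR1 had 67.9, 64.0 and 65.7 CPM against 70.4, 71.7 and 68.9 CPM, below the control in every sample but with an adjusted p of 0.1035 (log2 fold change −0.10, SE 0.04). By FPKM, YAP1 made up 67.0, 68.3 and 67.1% of the summed YAP1 and WWTR1 level in si-CNN3 and 66.0, 65.9 and 65.8% in si-NC (two-sided exact permutation test, p = 0.1, the smallest value that 3 samples against 3 can give). These shares depend on the gene lengths used, and by mean CPM in si-NC YAP1 had 280.7 and WWTR1 70.3.

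Of the 4 TEAD factors, through which YAP and TAZ reach DNA, only TEAD1 passed. TEAD1 had 235.4, 240.3 and 227.4 CPM in si-CNN3 and 192.5, 191.1 and 192.7 CPM in si-NC, a log2 fold change of 0.29 (SE 0.03, adjusted p = 1.14e-11). TEAD2 had −0.06 (95% interval −0.15 to 0.04), TEAD3 −0.13 (−0.25 to −0.007, adjusted p = 0.183) and TEAD4 0.08 (−0.02 to 0.18). TEAD1 had the highest FPKM of the 4 already in control cells, where it made up 32.7, 34.2 and 32.4% of their summed FPKM. It made up 37.7, 39.0 and 36.5% in si-CNN3 (two-sided exact permutation test, p = 0.1, again the smallest possible). These shares depend on the gene lengths used. By mean CPM in si-NC, TEAD1 had 192.1, TEAD2 48.6, TEAD3 26.9 and TEAD4 38.6. CD37 lies across TEAD2 on the other strand with 35.5% as many counts, and had an adjusted p of 0.6798.

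VGLL4, which competes with YAP for TEAD and represses target genes, was the only component that fell. It had 28.6, 25.8 and 25.1 CPM in si-CNN3 and 34.0, 33.1 and 34.6 CPM in si-NC, without overlap. The log2 fold change was −0.35 (SE 0.06, adjusted p = 4.399e-06). ATG7 meets VGLL4 on the other strand with 95.4% as many counts, and itself had 29.8 CPM against 28.6 CPM (adjusted p = 0.517). VGLL4 mRNA also holds the seed letters of si-CNN3#1 in its 3′ UTR, shown in capitals in the transcript VGLL4-201 at bases 1254 to 1260.
VGLL4: cgcctcctCCAACAAcacgtgga

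The same 7 letters were present in the 3′ UTR of 8 of the 35 members and of 10.4% of 12644 tested genes with a 3′ UTR in GENCODE 29. The other members were NF2, SAV1, STK4, PTPN14, NT5E, DLC1 and MYOF. Of the 7 of these that were tested, STK4 and VGLL4 had log2 fold changes below 0 and 5 had values above 0, and the median was 0.04. The seed letters of si-NC were found in NF2, LATS2 and TEAD1 and in 3.48% of the tested genes. The part of such sites in the changes of VGLL4, STK4 and TEAD1 was not tested.

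Other genes of the pathway were then counted from 2 further lists of known components and targets. Of 40 other Hippo components tested, 4 rose and 5 fell, with a median log2 fold change of 0.01. In all 22.5% of them passed, against 13.3% of all tested genes. The scaffolds WWC1 and WWC2, which activate LATS, rose by 0.17 and 0.19 (adjusted p = 0.00384 and 8.564e-05), and MAP4K3, a kinase that can act on LATS, by 0.18 (adjusted p = 0.02468). BTRC, the F-box protein that takes phosphorylated YAP to degradation, had −0.19 (adjusted p = 0.004977). The polarity protein LLGL1 had −0.16 (adjusted p = 0.01272) and the kinase TAOK2 had −0.14 (adjusted p = 0.002371). Every one of these changes was smaller than those of AMOTL2, AJUBA, TEAD1 and VGLL4.

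Of 29 other target genes tested, 7 rose and 6 fell, with a median log2 fold change of 0.07. In all 44.8% of them passed, against 13.3% of all tested genes. These 29 were more evenly divided than the 14 target genes above, a difference that was not tested. INHBA, a subunit of activin, rose by 1.00 (adjusted p = 0.007668) from 0.76 CPM, the EGF receptor ligand AREG by 0.46 (adjusted p = 0.007616) and the secreted protein CCDC80 by 0.36 (adjusted p = 0.03045). The integrin subunit ITGB2 had −0.61 (adjusted p = 0.003379). TGM2, a transglutaminase, had −0.43 (adjusted p = 2.493e-19), with 383 CPM in si-CNN3 against 515.5 CPM in si-NC.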

How the data were processed

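RNA was sequenced from 6 SiHa samples, 3 per group. According to the study's methods and processing notes, the authors screened the reads, aligned them with TopHat2 2.0.9 on Bowtie2 2.0.6, and deposited raw counts per Ensembl gene (HTSeq is named in the notes), together with FPKM values that the authors computed from the same counts. The genome build, the annotation and the strand setting are not given in the sources used here. Genes were named from GENCODE 29 on GRCh38, which holds 45342 of the 48162 identifiers.

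Counts were tested with edgeR 4.0.16 in R 4.3.3 (TMM, filterByExpr, quasi-likelihood test, no term besides group), p-values were adjusted over 15860 genes by Benjamini-Hochberg, and the threshold was 0.05. Log2 fold changes are si-CNN3 against si-NC, SE is the absolute log2 fold change over the square root of F, and CPM are TMM-normalized. The common coefficient of variation was 0.0232. Same-group samples differed by more than counting noise, and each was counted once as a replicate. That excess does not show that they were independent, which rests on the study's statement of independent assays. The SE and adjusted p-values rest on this small spread between samples. Alternatives were RLE, upper quartile and total-count scaling, DESeq2 1.42.0, no filter, at least 10 counts in every sample, limma 3.58.1 on log2(FPKM + 1) and on log2(FPKM + 0.1) for genes whose mean reached 1 FPKM, a replicate block, and leaving out each replicate. Thinning to the smallest total was chosen after seeing the data.

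All 35 members are named, with up to 6 genes of each further list that passed with the largest changes, and genes that overlap a member. One gene that this rule names is not reported here. The members and lists were chosen with earlier results of these data known. Promoter sequences are from RefSeq (GRCh38.p14) and 3′ UTRs from GENCODE 29. Protein motifs were not searched.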

Additional observations from a re-analysis of the deposited data

How the results depend on the processing

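Over 16 alternatives, between 4 and 5 components and between 7 and 10 target genes passed, against 4 and 9 in the main test. None of the 13 members that passed changed sign, and 11 of them passed under every alternative that gave an adjusted p, the exceptions being CTGF and FJX1. Of the 20 tested members that did not pass, 19 passed under none, the exception being STK4, and 7 changed sign under at least one. The median log2 fold change of the target genes ran from 0.17 to 0.32 with 1 replicate left out, the lowest without si-CNN3 replicate 2. Over all genes, 1087 were called by DESeq2, 1363 by limma on log2(FPKM + 1) and 1353 on log2(FPKM + 0.1), against 2111, and the cause was not tested. The study itself, with the DESeq package and an adjusted p threshold of 0.05, reported far fewer differentially expressed genes. With AMOTL2, AJUBA, PTPN14 and LATS2 counted as target genes, 2 components passed. The deviations of same-numbered samples correlated at 0.037, 0.079 and 0.045, so the numbers were not taken to pair the samples, although every sample correlated best with its own number. The replicate block called 2727 genes and 5 components, STK4 being added (log2 fold change −0.09, adjusted p = 0.01734), and 9 target genes.  Depth limits CTGF, NT5E, AMOT and AMOTL1, which had few counts, and ANKRD1 and DLC1, which could not be tested with the filter.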
